A study of Rattus norvegicus with 154 samples.

Results

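Messenger RNA levels of 9 interferon-induced genes, Rsad2, Mx1, Mx2, Usp18, Ifit3, Oas1a, Gbp2, Cxcl10 and Irf1, were followed in the lungs of rats given sulfur mustard. All probe sets annotated to these genes were taken, which gave 10 probe sets of 15866 on the array and 9 genes of 10411. Mx2 had 2 probe sets and each other gene had 1, named where the gene is described. The probe set with the highest mean represented each gene, and all 9 of these passed the filter on low intensity that left 11106 probe sets for testing. The second Mx2 probe set did not pass it and is described separately. Sulfur mustard is a blister agent that alkylates DNA and other molecules.

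Groups of rats were given sulfur mustard at 1, 3 or 6 mg with isopropyl alcohol as its vehicle, or the vehicle without the agent (0 mg), or saline (0 mg). The lungs were collected at 5 times, 30 min and 1, 3, 6 and 24 h. Body weight, strain, sex, age and route were not given in the sources used here, so the doses are given in mg as labelled, and whether they are per animal or per body weight was not stated. There were 77 animals in 25 groups, of which 23 groups had 3 animals and 2 groups, 6 mg at 30 min and 6 mg at 1 h, had 4. Total RNA of each animal was hybridised to 2 arrays, chips A and B, and the mean of the 2 was the value of the animal. Replicate numbers below only name animals within a group.

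Interferons are secreted proteins that warn cells of viral infection. Type I interferons act through the receptor IFNAR, and many of the genes they induce hold an interferon-stimulated response element (ISRE). Type II interferon acts through its own receptor, and many of its target genes hold gamma-activated sequences (GAS). The genes induced in this way include effectors that block viral replication, chemokines that attract lymphocytes, and feedback inhibitors. In the lung, epithelial cells and resident macrophages are known sources of this response.

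The start regions of the genes are shown because 8 of the 9 genes, all but Irf1, were called higher at 1 dose and time. These regions were searched for the 2 response elements, and a match does not tell which interferon type induced a gene. RefSeq promoters (build GRCr8) were found for 7 of the 9 genes, all but Mx2 and Usp18. The ISRE core was searched as GAAA, any 2 bases and GAAA, and the GAS as TTCNNNGAA, on both strands, over 250 bases before and 50 bases after the start. The ISRE core was found in 5 of the 7, those of Rsad2, Ifit3, Oas1a, Cxcl10 and Gbp2, against 3.92% of all 33469 promoters in the table. The GAS was found in 2 of the 7, those of Oas1a and Irf1, against 8.87%. Mx1 held neither. The 250 bases before the start follow, 5′ to 3′ on the strand of the gene, with ISRE core and GAS matches in capitals.
Rsad2, chr6:48788121-48788370, minus strand: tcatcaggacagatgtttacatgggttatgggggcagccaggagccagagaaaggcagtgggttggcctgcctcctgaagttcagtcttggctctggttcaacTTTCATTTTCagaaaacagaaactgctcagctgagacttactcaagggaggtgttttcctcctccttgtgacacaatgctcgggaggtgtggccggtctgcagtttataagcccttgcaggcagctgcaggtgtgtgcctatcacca
Ifit3, chr1:241527076-241527325, plus strand: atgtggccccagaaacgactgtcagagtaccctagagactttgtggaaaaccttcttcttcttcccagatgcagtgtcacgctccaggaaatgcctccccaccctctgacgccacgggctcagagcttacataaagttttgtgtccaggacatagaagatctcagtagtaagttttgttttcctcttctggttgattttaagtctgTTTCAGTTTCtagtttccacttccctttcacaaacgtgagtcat
Oas1a, chr12:41330216-41330465, plus strand: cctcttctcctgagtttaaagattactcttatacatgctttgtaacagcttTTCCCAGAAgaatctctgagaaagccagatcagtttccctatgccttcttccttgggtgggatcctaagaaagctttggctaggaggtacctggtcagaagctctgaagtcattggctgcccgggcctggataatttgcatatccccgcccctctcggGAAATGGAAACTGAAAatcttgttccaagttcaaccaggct
Cxcl10, chr14:15988816-15989065, plus strand: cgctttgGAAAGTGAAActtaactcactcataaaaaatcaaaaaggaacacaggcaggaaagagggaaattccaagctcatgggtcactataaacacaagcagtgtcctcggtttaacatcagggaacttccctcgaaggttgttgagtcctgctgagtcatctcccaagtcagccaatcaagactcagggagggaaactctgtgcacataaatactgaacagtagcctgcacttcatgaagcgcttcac
Gbp2, chr2:234005477-234005726, plus strand: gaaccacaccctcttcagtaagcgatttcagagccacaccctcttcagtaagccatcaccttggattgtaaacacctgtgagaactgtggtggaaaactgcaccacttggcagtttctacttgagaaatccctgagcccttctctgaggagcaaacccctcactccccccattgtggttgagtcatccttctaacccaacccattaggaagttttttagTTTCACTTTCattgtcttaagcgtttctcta
Irf1, chr10:38417685-38417934, plus strand: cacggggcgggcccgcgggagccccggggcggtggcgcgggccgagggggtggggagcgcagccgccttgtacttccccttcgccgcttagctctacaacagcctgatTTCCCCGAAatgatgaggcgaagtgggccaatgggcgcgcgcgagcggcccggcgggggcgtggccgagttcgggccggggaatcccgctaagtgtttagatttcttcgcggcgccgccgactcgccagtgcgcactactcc

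The ISRE core lay 147 bases before the start in Rsad2, 44 in Ifit3, 31 in Gbp2 and 243 in Cxcl10, counted to its first base. In Oas1a 2 overlapping ISRE cores began 41 and 35 bases before the start, and a GAS began 199 bases before it. In Irf1 the GAS began 142 bases before the start. The start is that of the promoter record. For Rsad2, Oas1a and Mx1 it lay inside the RefSeq gene span. Read along the gene, these spans began at chr6:48788245, chr12:41330423 and chr11:50294699. Part of the bases before the start thus lay within these genes, among them the 2 ISRE cores of Oas1a. The ISRE core of Rsad2 lay before its gene span. A match describes these letters only, and binding was not measured here.

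Values are deposited linear intensities, and in each array their mean was 150 after the outer 2% had been trimmed. Array medians lay between 67.7 and 100.1. Chips A and B of 1 animal correlated over probe sets with a median r of 0.977. The label lung was checked against epithelial markers. The median over animals was 6799.5 for Sftpc, the surfactant protein C gene of alveolar type II cells, and 5813.0 for Scgb1a1, the secretoglobin gene of club cells. In lung tissue, more RNA per cell and more cells of a type cannot be told apart. Scanning took 17 days, and animals fell into 12 combinations of the days on which their chips were scanned. The labels do not say which animals were dosed together, so p-values measure only the spread between animals within groups. In the main fit this spread is taken over all 25 groups.

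The largest difference was at 24 h in the animals given 1 mg. Of the 9 genes 8 rose against isopropyl alcohol, all but Irf1, while 0.324% of all tested probe sets were higher (36 of 11106) and 0.333% were called in either direction (limma, adjusted p under 0.05). The median log2 difference of the 9 genes was 1.80, against -0.03 over all tested probe sets. Of the 36 higher probe sets 8 were of the 9 genes, 9 were of a wider list of interferon pathway genes, 11 were of other named genes and 8 had no single gene name. At 3 and 6 mg none of the 9 genes was called higher at that time, and the comparisons of a time share their isopropyl alcohol animals.

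**Figure D1:**
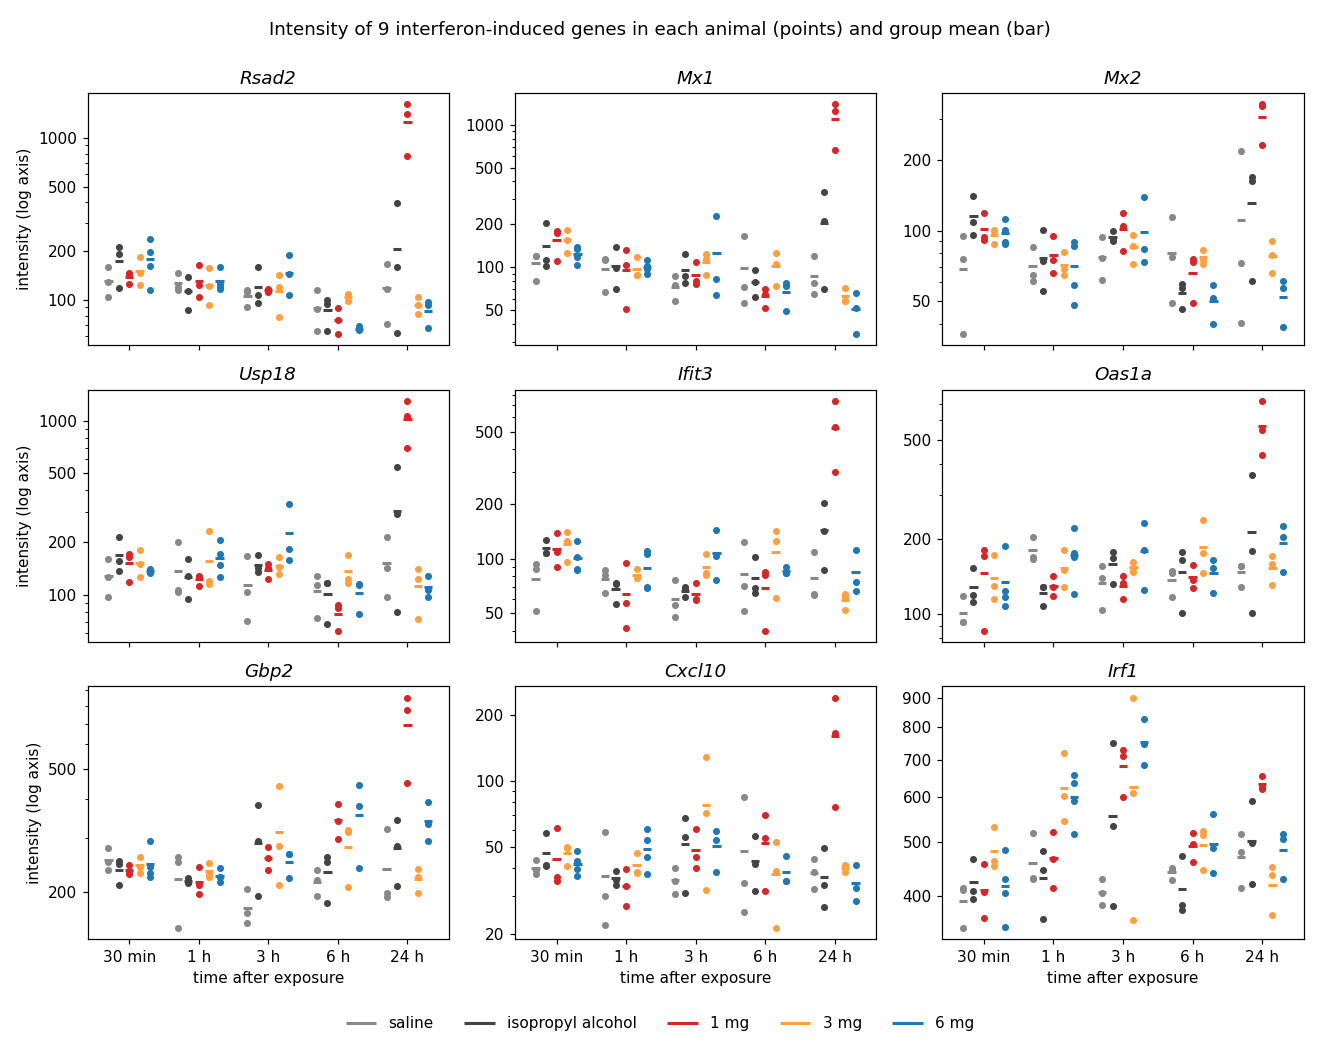
Each panel plots 1 gene, with intensity on a log axis against time after exposure, a point for each animal and a short bar for the mean of its group. At 24 h the 1 mg animals (red) lay between 770.4 and 1615.2 for Rsad2, above all other animals, and between 620.4 and 654.3 for Irf1, within the range of the others.

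Rsad2 (1370913_at) encodes viperin, an enzyme that makes a chain-terminating nucleotide which stops viral RNA synthesis. At 24 h its intensity was 1615.2, 770.4 and 1401.9 in the 3 animals given 1 mg. It was 159.4, 399.0 and 62.9 with isopropyl alcohol and 166.2, 116.2 and 70.8 with saline. At 3 mg it was 93.0, 104.8 and 81.6, and at 6 mg it was 97.8, 67.0 and 93.0. All 3 animals given 1 mg were above all 74 other animals of the study, whose highest was the second isopropyl alcohol animal at 24 h. The 1 mg animals exceeded isopropyl alcohol by 2.85 ± 0.32 on the log2 scale (SE, n = 3 and 3, 95% interval 2.21 to 3.50). The SE and interval take the spread over all 25 groups. The isopropyl alcohol animals at 24 h alone had a mean intensity of 207.1 with an SD of 173.1. The difference was 7.23-fold (limma, adjusted p = 2.36e-08). By p this was rank 1 of 11106 probe sets. The size depended on single control animals, at 11.3-fold without isopropyl alcohol animal 2 and 4.66-fold without animal 3.

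Mx1 (1371015_at) and Mx2 (1387283_at) encode dynamin-like GTPases that trap viral ribonucleoproteins, Mx1 in the nucleus and Mx2 in the cytoplasm of rodent cells. Mx1 stood at 1391.2, 667.2 and 1250.0 with 1 mg at 24 h, against 212.2, 334.8 and 70.8 with isopropyl alcohol and 119.6, 77.6 and 64.7 with saline. At 3 mg it was 57.8, 71.5 and 58.1, and at 6 mg it was 66.2, 34.1 and 51.8. The 1 mg animals were above all others and the 6 mg animals were all below the isopropyl alcohol animals. The rise with 1 mg was 2.55 ± 0.36 (log2, SE), 5.87-fold, with an adjusted p of 1.44e-05, and 3.86-fold without isopropyl alcohol animal 3 (adjusted p = 0.00502). Mx2 stood at 342.8, 232.5 and 347.5 with 1 mg, against 162.4, 170.1 and 60.9 with isopropyl alcohol and 219.2, 72.8 and 40.1 with saline. Its rise was 1.30 ± 0.32 (log2, SE), 2.46-fold, with an adjusted p of 0.0475, close to the threshold. It passed in 6 of the 15 alternative fits, and the largest adjusted p, 1.0, came without isopropyl alcohol animal 3 (0.84 on the log2 scale). Its chips A and B correlated at 0.64 over the 77 animals, against 0.86 or more for each other main probe set.

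Ifit3 (1376908_at), a member of a family that binds foreign RNA and adaptor proteins of antiviral signalling, stood at 738.6, 300.5 and 531.6 with 1 mg at 24 h. It stood at 142.4, 202.6 and 86.6 with isopropyl alcohol, and saline animals lay between 63.1 and 108.6. The groups did not overlap, and the rise was 1.80 ± 0.29 (log2, SE), 3.49-fold (adjusted p = 0.000116). Oas1a (1371152_a_at), a synthetase of the oligoadenylate signal that activates RNase L, stood at 716.8, 435.5 and 548.8 with 1 mg. With isopropyl alcohol it was 178.8, 361.5 and 101.0. Its rise was 1.53 ± 0.26, 2.88-fold, with an adjusted p of 0.000266. Gbp2 (1368332_at), a GTPase that binds membranes around intracellular pathogens, stood at 773.1, 451.6 and 847.2, against 341.4, 281.4 and 209.1. Its rise was 1.27 ± 0.21, 2.41-fold, with an adjusted p of 0.000266. For each of these 3 genes all 3 animals given 1 mg were above the 74 others, and the second one was the lowest of the 3.

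Usp18 (1389034_at) encodes the protease that removes ISG15 from proteins and dampens signalling at the type I interferon receptor. At 24 h it stood at 1295.3, 694.7 and 1060.1 with 1 mg, at 289.8, 538.4 and 79.8 with isopropyl alcohol and between 97.4 and 214.6 with saline. The rise was 2.04 ± 0.35 (log2, SE), 4.11-fold (adjusted p = 0.000266), with no overlap between the groups. The spread among the isopropyl alcohol animals was wide for this gene. Without animal 3 of that group the difference was 2.46-fold and did not pass (adjusted p = 0.105), and without animal 2 it was 6.18-fold.

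Cxcl10 (1387969_at), a chemokine that attracts T cells and NK cells through CXCR3, stood at 240.2, 75.8 and 165.5 with 1 mg at 24 h and at 49.6, 33.5 and 26.6 with isopropyl alcohol. Its rise was 1.85 ± 0.32 (log2, SE), 3.60-fold (adjusted p = 0.00035). Of the animals given 1 mg 2 were above all 74 others, whose highest value was 129.0 in an animal given 3 mg at 3 h.

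Irf1 (1368073_at), a transcription factor with a central part in the type II response, stood at 626.1, 654.3 and 620.4 with 1 mg at 24 h. It stood at 590.0, 497.9 and 420.2 with isopropyl alcohol. The groups did not overlap, but the difference of 0.34 ± 0.17 (log2, SE, 95% interval -0.01 to 0.69) had an adjusted p of 0.823. It was the only 1 of the 9 genes that did not pass at this dose and time.

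The count of 8 depended on 1 control animal and on which groups entered the fit. Isopropyl alcohol animal 3 at 24 h was the lowest of its group for all 9 genes, and without it 5 genes passed (Rsad2, Mx1, Ifit3, Gbp2 and Cxcl10). With the 24 h groups alone in the fit 0 genes passed in limma, with a smallest adjusted p of 0.0629, while all 9 had an unadjusted p under 0.05. The share of all probe sets passing in these alternative fits is not given, so these counts have no background. Comparisons with the other groups of 24 h were chosen after the values had been seen. Against saline 8 genes were higher with 1 mg (0.459% of probe sets), by 3.37 ± 0.32 for Rsad2 and 3.54 ± 0.36 for Mx1 on the log2 scale. With the 24 h groups alone 6 of these 8 passed, all but Mx2 and Usp18.

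Doses were compared directly at 24 h. The 1 mg animals had higher levels than the 3 mg animals for 8 of the 9 genes (0.576% of probe sets higher) and than the 6 mg animals for 8 of 9 (3.32%). For Mx1 the log2 differences were 3.94 ± 0.36 and 4.24 ± 0.36, with adjusted p of 9.16e-12 and 5.6e-13. For Gbp2 they were 1.57 ± 0.21 and 0.97 ± 0.21. Irf1 passed in neither, at 0.59 ± 0.17 (adjusted p = 0.131) and 0.39 ± 0.17 (adjusted p = 0.238). With the 24 h groups alone in the fit 7 and 8 genes passed. These comparisons share the 1 mg animals.

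**Figure D2:**
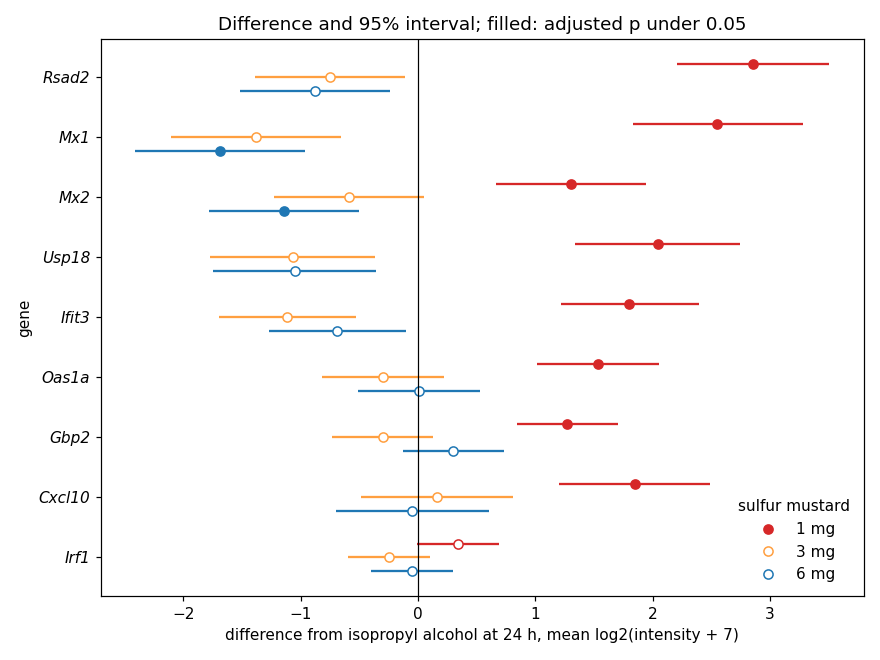
Points give the log2 difference of each dose from isopropyl alcohol at 24 h for the 9 genes and lines its 95% interval, filled where the adjusted p was under 0.05. The 1 mg differences lay between 0.34 (Irf1) and 2.85 (Rsad2), and those of 6 mg between -1.69 (Mx1) and 0.30 (Gbp2).

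At 6 mg and 24 h, 2 of the 9 genes fell against isopropyl alcohol, where 4.02% of all probe sets were lower and 6.73% were called in either direction. Mx1 fell by 1.69 on the log2 scale (SE 0.36, 3.22-fold lower, adjusted p = 0.00112), and Mx2 fell by 1.14 (SE 0.32, adjusted p = 0.0168). Usp18 stood at -1.05 ± 0.35 (adjusted p = 0.0539), Rsad2 at -0.88 ± 0.32 (adjusted p = 0.0895) and Ifit3 at -0.69 ± 0.29 (adjusted p = 0.173). Oas1a, Gbp2, Cxcl10 and Irf1 lay between -0.05 and 0.30. Mx1 passed in all 15 alternative fits, from -2.29 (4.89-fold lower, without isopropyl alcohol animal 3) to -1.22, and Mx2 in 8 of the 15. Without isopropyl alcohol animal 3 the count was 4, with Rsad2 at -1.52 and Usp18 at -1.79, and without animal 1 or 2 of that group or animal 2 of 6 mg it was 1. Against saline at 24 h, a comparison added after the values had been seen, none of the 9 passed at 6 mg (5.92% of probe sets called), with Mx1 at -0.70 ± 0.36 (adjusted p = 0.325). An unadjusted p under 0.05 was reached there by 2 of the 9 and by 1862 of all 11106 probe sets.

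At 3 mg and 24 h none of the 9 passed against isopropyl alcohol (0.504% called). An unadjusted p under 0.05 was reached by 4 of the 9 and by 619 of all 11106 probe sets. Mx1 stood at -1.38 ± 0.36 (log2, SE, adjusted p = 0.0601), Ifit3 at -1.12 ± 0.29 (adjusted p = 0.0594) and Usp18 at -1.07 ± 0.35 (adjusted p = 0.284). Ifit3 was at 61.5, 64.0 and 52.0 with 3 mg, all below the isopropyl alcohol animals. Without isopropyl alcohol animal 3 the count was 4, with Rsad2 at -1.39, Mx1 at -1.99, Usp18 at -1.81 and Ifit3 at -1.42. Against saline, again a comparison added later, none passed (0.45% called) and none had an unadjusted p under 0.05. Between 6 and 3 mg none of the 9 passed (1.1% called), with differences from -0.55 for Mx2 to 0.60 for Gbp2. Here 1 of the 9 and 1065 of all 11106 probe sets had an unadjusted p under 0.05. For Rsad2 the difference was -0.13 with a 95% interval of -0.77 to 0.51.

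A straight line over 0, 1, 3 and 6 mg at 24 h sloped down for 5 genes, Rsad2, Mx1, Mx2, Usp18 and Ifit3, where 4.75% of probe sets sloped down. The slope was -0.50 ± 0.06 per mg for Mx1 on the log2 scale (adjusted p = 1.18e-09) and -0.37 ± 0.05 for Rsad2 (adjusted p = 1.03e-07). The 0 mg level lay between those of 1 mg and of 3 and 6 mg for these 5 genes, so the slope does not describe the order of the doses.

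At the 4 earlier times no gene of the 9 passed in limma at any dose. At most 2 of the 9 had an unadjusted p under 0.05 in a comparison. These 2 were with 6 mg at 3 h, where 2844 of all 11106 probe sets had such a p. The share of all probe sets called with 6 mg was 0% after 30 min and then 0.189% (1 h), 12.9% (3 h) and 18.2% (6 h). With 3 mg it was 1.68% after 6 h and 0% before. With 1 mg it was 0.018% after 3 h, 0.009% after 6 h and 0% before. At 6 h, when 6 mg changed the most probe sets, the 9 genes had differences between -0.33 and 0.57 with a median of 0.01. Gbp2 was closest, at 239.8, 380.6 and 444.8 with 6 mg against 259.0, 184.2 and 250.9, a difference of 0.57 ± 0.21 (adjusted p = 0.0547). Without animal 1 of 6 mg it passed, at 0.82 (adjusted p = 0.00889). Linear trends over dose passed for none of the 9 before 24 h, with at most 2 at an unadjusted p under 0.05. The count was 2 at 1 h and at 3 h, where 1622 and 2787 of all 11106 probe sets had such a p. With the 3 h groups alone in the fit 1 of the 9, Ifit3, sloped up. Leaving out 1 animal also gave 1 gene at 3 h (Irf1 without isopropyl alcohol animal 1 or 3 mg animal 3, Ifit3 without 6 mg animal 2) and 1 at 6 h (Gbp2 without 6 mg animal 1). The shares of probe sets called for trend were 0% (30 min), 0.477% (1 h), 12.1% (3 h) and 20.4% (6 h).

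At 1 h Irf1 stood at 603.8, 543.4 and 718.9 with 3 mg and between 516.2 and 657.6 in the 4 animals given 6 mg. With isopropyl alcohol it was 446.4, 364.9 and 481.3, below all of these animals. The differences of 0.52 ± 0.17 (adjusted p = 1.0) and 0.47 ± 0.16 (adjusted p = 0.216) on the log2 scale did not pass. At 3 h it was 744.8, 826.8 and 684.2 with 6 mg, but the isopropyl alcohol animals spread from 385.4 to 747.6, and the difference was 0.48 ± 0.17 (adjusted p = 0.059). Without isopropyl alcohol animal 1 it passed, at 0.71 (adjusted p = 0.00689). The highest Irf1 value of the study, 900.4, was in an animal given 3 mg at 3 h, the same animal that had the highest Cxcl10 value outside the 1 mg animals of 24 h.

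**Figure D3:**
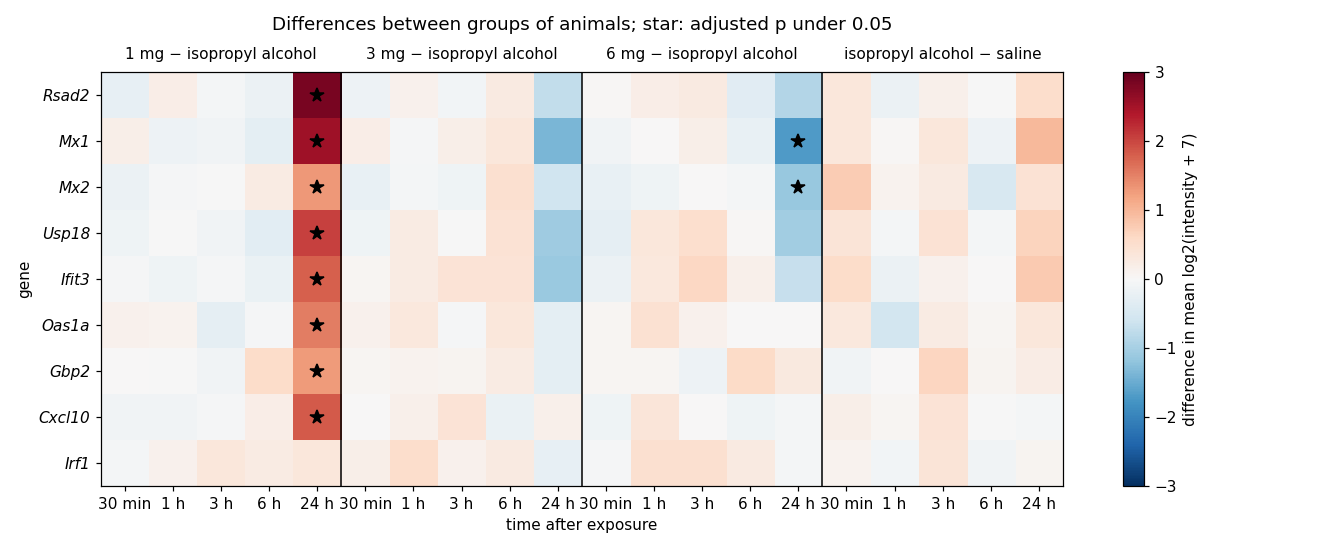
Colours give the log2 difference between group means for each gene (rows) and comparison (columns, grouped by dose and ordered by time), and stars mark an adjusted p under 0.05. Stars stand in the 24 h column of 1 mg for 8 genes and in that of 6 mg for Mx1 and Mx2.

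The difference between times was tested for both doses. The 1 mg effect at 24 h exceeded that at 6 h for 4 genes (0.063% of probe sets), by 3.03 ± 0.45 for Rsad2, 2.85 ± 0.51 for Mx1, 2.35 ± 0.49 for Usp18 and 2.01 ± 0.41 for Ifit3 on the log2 scale. Over all 5 times the 1 mg effect differed for the same 4 genes (F-test, 0.099% called), with adjusted p of 3.67e-05 for Rsad2 and 0.00662 for Mx1. Both of these tests were chosen after the values had been seen. The 6 mg effect differed between times for Mx1 (adjusted p = 0.0386, 11.4% called). The change in the 6 mg effect from 6 to 24 h passed for none of the 9 (3.35% called), with Mx1 at -1.46 ± 0.51 (adjusted p = 0.11). For this change 4 of the 9 and 1623 of all 11106 probe sets had an unadjusted p under 0.05.

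Between isopropyl alcohol and saline none of the 9 genes passed in limma at any time, and at most 2 had an unadjusted p under 0.05. The count was 2 at 3 h and at 24 h, where 591 and 317 of all 11106 probe sets had such a p. The shares of all probe sets called were 0.027% (30 min), 0.009% (3 h), 0.018% (6 h) and 0% (1 h and 24 h). At 24 h Mx1 stood at 0.98 ± 0.36 (log2, SE, unadjusted p = 0.0086, adjusted p = 1.0 in limma) and Ifit3 at 0.78 ± 0.29 (unadjusted p = 0.0095, adjusted p = 1.0). The isopropyl alcohol and saline animals overlapped for both genes.

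Control animals differed among themselves for several genes at once. In the 30 control animals Mx1 lay between 56.4 and 334.8 with a median of 91.3, and Usp18 between 67.8 and 538.4 with a median of 127.7. Within the controls, the correlation of each gene with the mean of the other 8 was 0.92 for Mx1, 0.89 for Usp18, 0.84 for Rsad2 and 0.80 for Ifit3, and lowest for Cxcl10 at 0.38 and Irf1 at 0.47. These genes were read on the same arrays, so array effects are shared. Over all 25 groups, with and without the agent, 1 animal was the highest for at least 8 of the 9 genes in 8 groups. The control groups among these were isopropyl alcohol at 30 min and 3 h and saline at 6 h. In 5 groups 1 animal was the lowest for at least 8, and the control group among these was isopropyl alcohol at 24 h. How often other sets of genes do this was not counted.

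Scan days moved with these animals at 24 h. The first 1 mg animal, the second isopropyl alcohol animal and the first saline animal were scanned on days 5 and 6, and the other 2 animals given 1 mg on days 9 and 10. Isopropyl alcohol animal 3, the lowest of its group for all 9 genes, was the only 24 h animal scanned on days 13 and 14. Its low values and these days cannot be told apart. Within days 5 and 6, with 1 animal against 1, the 1 mg animal exceeded the isopropyl alcohol animal by 2.00 for Rsad2, 2.03 for Mx1 and 2.61 for Cxcl10 on the log2 scale. The smallest such differences were 0.33 for Irf1, 0.97 for Oas1a and 0.98 for Mx2. Against saline the 1 mg animals exceeded by 3.28 for Rsad2 on days 5 and 6 and by 3.76 on days 9 and 10, with 2 animals against 1. With scan days as a block 7 genes passed against isopropyl alcohol, with Mx2 at 1.35 and an adjusted p of 0.111. For 6 mg the only shared pair was days 4 and 7, with 1 animal against 1, where Mx1 stood at -1.59 and Mx2 at -1.45.

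Cell type markers and RNA integrity also varied at 24 h. The summed intensity of 13 T and NK cell markers lay between 941.5 and 1033.2 with isopropyl alcohol, between 636.4 and 779.6 with 1 mg, between 489.7 and 590.8 with 3 mg and between 311.1 and 408.4 with 6 mg. Of 9 tested markers on this list 1 fell with 1 mg, Cd3g, a subunit of the T cell receptor complex (-0.89 ± 0.19, log2, adjusted p = 0.0089), and 8 fell with 6 mg. Cd3g did not pass without isopropyl alcohol animal 3 (adjusted p = 0.164) or without 1 mg animal 2 (adjusted p = 0.319). Of 3 macrophage markers 0 passed at each dose, and their sum lay between 9137.0 and 10716.9 with 1 mg and between 5681.9 and 9610.6 with isopropyl alcohol. This sum was mostly Lyz2, with a median of 6934.8 over all animals, against 301.4 for Cd68 and 490.2 for Csf1r. With 1 mg Lyz2 stood at 0.40 ± 0.33, Cd68 at -0.06 ± 0.17 and Csf1r at -0.16 ± 0.16 (log2, SE). The log2 ratio of 3′ to 5′ GAPDH control probe sets, where a higher ratio means more degraded RNA, was 1.061 ± 0.130 (SD, n = 3) with 1 mg and 0.752 ± 0.414 with isopropyl alcohol. It was 1.160 ± 0.315 with saline, 0.699 ± 0.464 with 3 mg and 1.218 ± 0.360 with 6 mg. In isopropyl alcohol animal 3 it was 0.287, against 0.891 and 1.078 in the other animals of that group. The same ratio for actin was 1.542 ± 0.321 with 1 mg and 0.851 ± 0.279 with isopropyl alcohol, and these 2 groups did not overlap. It was 1.478 ± 0.828 with saline, 0.890 ± 0.373 with 3 mg and 1.448 ± 0.582 with 6 mg. The part of cell composition and RNA integrity in the results was not tested.

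The interferons themselves were at the low end of the array. Ifnb1, the gene of interferon beta, lay between 2.60 and 33.6 over all animals and reached 14.5 in the 1 mg animals at 24 h. Ifng, the gene of interferon gamma, lay between 3.15 and 17.4 and reached 10.3 there. Both failed the intensity filter and were not tested, and the alpha and lambda interferon genes listed had no probe set with 1 gene.

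The wider pathway was read from a list of 112 genes, of which 57 had a probe set and 51 were tested. With 1 mg at 24 h 9 of the 51 rose and 0 fell, with a median log2 difference of 0.17, where 0.324% of all probe sets were higher. This count also rested on single animals. Without isopropyl alcohol animal 3 it was 1 (Eif2ak2), without 1 mg animal 1 it was 3, and without 1 mg animal 3 it was 5. None of the 4 receptor genes, of the 7 signalling kinases and factors or of the 4 negative regulators passed. Of the 6 sensors 1 rose, of the 21 other type I induced genes 7 rose, and of the 9 other type II induced genes 1 rose. Eif2ak2, the kinase PKR that senses double-stranded RNA, stood at 266.7, 184.0 and 232.3 with 1 mg and at 70.7, 131.0 and 44.0 with isopropyl alcohol. It rose by 1.52 ± 0.25 (log2, SE, adjusted p = 0.000116). Irgm2, an immunity-related GTPase, rose by 1.07 ± 0.19 (adjusted p = 0.000337), from 508.2, 513.4 and 249.8 to 1070.2, 646.8 and 887.7. Oasl rose by 1.18 ± 0.23, Sp110 by 1.02 ± 0.21, Parp9 by 0.98 ± 0.20 and Dtx3l, the E3 ligase partner of Parp9, by 1.23 ± 0.25.

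Irf7, the factor that amplifies type I interferon production, stood at 1.47 ± 0.39 with 1 mg at 24 h (log2, SE, adjusted p = 0.0886). Stat2 stood at 0.45 ± 0.15 (adjusted p = 0.409) and Irf9 at 0.57 ± 0.19 (adjusted p = 0.41). Ifit1, a close relative of Ifit3, stood at -0.66 ± 0.41 (adjusted p = 0.828). Against 3 mg, Irf7 was 2.02 ± 0.39 higher with 1 mg (adjusted p = 0.000836) and Stat2 0.82 ± 0.15 higher (adjusted p = 0.000312). Of the 51 pathway genes 15 were higher and 1 lower with 1 mg than with 3 mg, where 64 of all 11106 probe sets were higher and 11 lower. Of the 51, 20 were higher and 2 lower than with 6 mg, where 369 of all probe sets were higher and 208 lower.

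**Figure D4:**
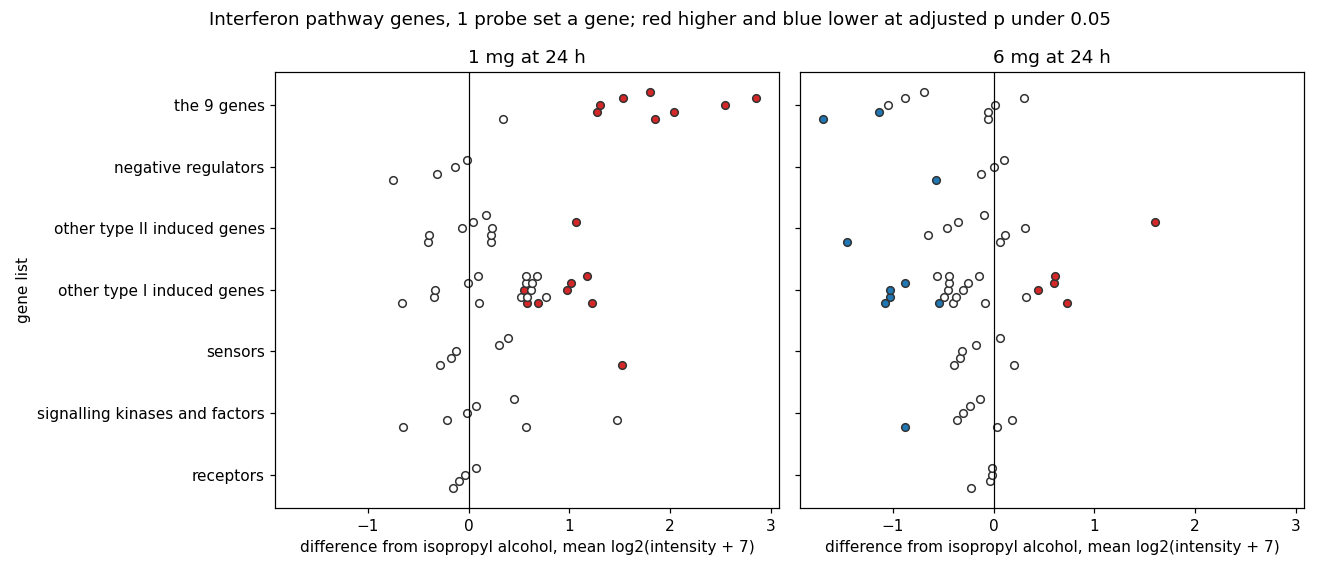
Each point is 1 gene, by list (vertical axis) and log2 difference from isopropyl alcohol at 24 h (horizontal axis), for 1 mg on the left and 6 mg on the right. Filled points passed the test, red for higher and blue for lower, and the uppermost line holds the 9 genes.

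With 6 mg at 24 h 5 of the 51 pathway genes were higher and 8 lower, where 301 of the 11106 probe sets were higher and 446 lower (6.73% called in all). The counts were 3 and 2 without 6 mg animal 2, 4 and 3 without isopropyl alcohol animal 2, and 2 and 11 without isopropyl alcohol animal 3. Isg20, an exonuclease that degrades viral RNA, rose by 0.73 ± 0.13 (log2, SE, adjusted p = 4.7e-05). The membrane proteins that block viral entry, Ifitm3 and Ifitm1, rose by 0.61 ± 0.12 and 0.60 ± 0.15. Ccl5, a chemokine made by T and NK cells, fell by 1.45 (SE 0.29, adjusted p = 0.00035), and Irf8, a factor of myeloid and B cells, fell by 0.88 (SE 0.22). Ptpn6, a phosphatase of blood cells, fell by 0.57 (SE 0.15, adjusted p = 0.012). Of the 21 other type I induced genes 4 were higher and 5 lower. Irf8 was also on the list of plasmacytoid and dendritic cell markers. In the same comparison 8 of 9 tested T and NK cell markers fell. Of 6 listed B cell markers only 2 were on the array, Cd79b (median intensity 37.0) and Cd74 (median 3062.0), and both fell. Whether cell composition had a part was not tested. With 3 mg at 24 h 0 rose and 2 fell, Samhd1 by 1.26 (SE 0.24) and Plac8 by 1.15 (SE 0.28), and neither passed without 3 mg animal 1.

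With 6 mg 2 of the 51 pathway genes passed at 3 h, where 12.9% of all probe sets were called, and 4 at 6 h, where 18.2% were. Isg20 rose at 3 h by 0.54 ± 0.13 and at 6 h by 0.81 ± 0.13 (log2, SE), Ifitm3 rose at 3 h by 0.40 ± 0.12, and Eif2ak2 rose at 6 h by 0.75 ± 0.25. Irf8 and Mavs, the adaptor of RNA sensing at mitochondria, fell at 6 h by 0.63 and 0.45, but 0 of the 51 were lower at 6 h when any 1 of the 6 animals was left out. Without 6 mg animal 3, 0 of the 51 passed at 3 h. No pathway gene passed with 1 or 3 mg before 24 h.

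Genes outside the 9 were ordered by the correlation of their log2 values with the mean of the 9, over 77 animals and 8033 genes. The highest were Irgm2 at 0.90, Irf7 at 0.87, Rnf213 at 0.86, Znfx1 at 0.85, Parp14 at 0.83 and Oasl at 0.82. Without the 3 animals given 1 mg at 24 h, the same genes stood at 0.71, 0.84, 0.57, 0.60, 0.63 and 0.69. Irf7 then had the highest value of the 6 and Rnf213 the lowest. Points share arrays and, in part, scan days.

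The second Mx2 probe set, 1369202_at, lay at or under 47.8 in 67 of the 77 animals, with a median of 21.4 in these. It exceeded 60 in 10 animals, 1 each in 10 groups, a level chosen after the values had been seen. The highest was the second animal given 1 mg at 24 h, with 558.8 on chip A and 456.6 on chip B, while the other 2 animals of that group had 15.2 and 34.1. That animal had the lowest value of its group on the main Mx2 probe set. The next highest was 159.4, in an animal given 1 mg at 1 h, with 160.1 and 158.6 on its chips. High values thus stood on both chips of an animal. The correlation between the 2 probe sets over 77 animals was 0.09.

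**Figure D5:**
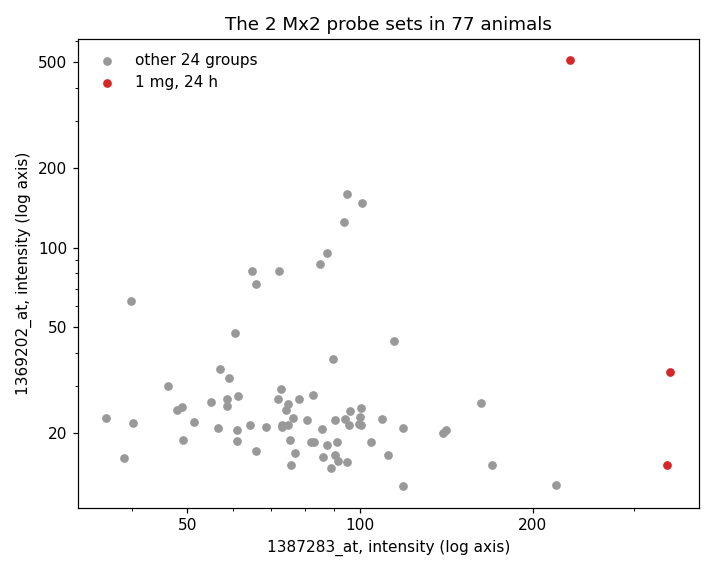
Each point is 1 of 77 animals, with the main Mx2 probe set on the horizontal and the second on the vertical log axis. The 3 animals given 1 mg at 24 h (red) lay between 232.5 and 347.5 on the main probe set, and 1 of them stood at 507.7 on the second.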

How the data were processed

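The deposited series table held linear intensity values of 15923 probe sets for 154 arrays (Affymetrix RAE230A, per the file headers). No label or header names the program that summarised the probes. Per the deposited scan records, which were used only for scan days and notes, regenerated probe was noted for 7 arrays.

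Here 57 control probe sets were left out, log2 was taken after adding 7, the 10th percentile of the table, and chips A and B were averaged. Probe sets in the lowest 30% by mean were not tested. The offset understates differences of dim probe sets. A mean for each of 25 groups was fitted over 77 animals by limma 3.58.1 (R 4.3.3 and statmod 1.5.0), using two-sided moderated tests and Benjamini-Hochberg adjustment over all 11106 probe sets per comparison, at 0.05. The fit was tested on simulated data. SE is that of the model, with the spread of a probe set estimated over all 25 groups. It is not the spread of the 2 groups compared. Genes came from the platform annotation, in which 12783 probe sets had 1 gene, 312 several and 2771 none, and 12748 were matched to RefSeq (GRCr8, names only). Intensity does not compare levels between probe sets of different genes, and the number of animals limits precision.

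The 9 genes, the pathway and marker lists and the tests were chosen with earlier results of these data known. All 9 genes were named. Up to 6 passing pathway genes per comparison were named by smallest adjusted p, with Irf7, Stat2, Irf9, Ifit1 and the interferons added after their values were seen. The 6 most similar genes were named. The doses of a time share the isopropyl alcohol animals. Counts of the 9 genes in alternative fits are given without the share of all probe sets passing there. Alternatives were another offset, quantile normalization, no filter, each chip alone, scan days as a block, rounds of title numbers at 24 h as a block, array weights, fits to 1 time, and leaving out each animal in turn.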

Additional observations from a re-analysis of the deposited data

Results flagged for a closer look

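On the second Mx2 probe set, 1 of the 4 animals given 6 mg at 30 min stood at 95.5, far above the other 3. This was 1 of 20 tests for an outlying animal, over 10 probe sets in the 2 groups of 4, and chance flags about 1 in 20 such tests. The effect of 1 mg differed between times (limma F-test) for Rsad2 (adjusted p = 3.67e-05), Mx1 (adjusted p = 0.00662), Ifit3 (adjusted p = 0.0234) and Usp18 (adjusted p = 0.0384), in tests chosen after the values had been seen. The effect of 6 mg differed between times for Mx1 (adjusted p = 0.0386).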

How the results depend on the processing

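With 1 mg at 24 h the count of 8 higher genes became 0 when the fit held 24 h animals alone. That fit has fewer animals and also takes the spread from the 24 h groups only. The count of higher genes with 1 mg ranged from 5 to 8 when each animal was left out. It was lowest without isopropyl alcohol animal 3. The count of 2 lower genes with 6 mg at 24 h became 1 with quantile normalization, 4 with array weights and 1 in the fit of 24 h animals alone, and ranged from 1 to 4 when each animal was left out. It was 4 without isopropyl alcohol animal 3, and 1 without the first or second of that group or without the second 6 mg animal. With 3 mg at 24 h the count of 0 lower genes became 2 with array weights (Mx1 and Ifit3), and ranged from 0 to 4 when each animal was left out. The count of 0 higher genes with 6 mg at 3 h became 1 (Irf1) when scan days were a block and ranged from 0 to 1 when each animal was left out, with 1 without the first isopropyl alcohol animal. The count of upward dose trends at 3 h, 0, became 1 (Ifit3) in the fit of 3 h animals alone and ranged from 0 to 1 when each animal was left out, and that at 6 h, also 0, ranged from 0 to 1. With 6 mg at 6 h the count of 0 higher genes became 1 (Gbp2) with chip A alone and 1 with array weights, and ranged from 0 to 1, with 1 without the first 6 mg animal. The cause of these changes was not tested. The other 847 counts stayed within 1.5 times. Of the values of single genes, 948 kept their direction and side of the threshold, 31 lost it, 20 gained it and 0 called values changed sign. The title numbers of the 24 h animals ran in 3 rounds of 5 numbers, with at most 1 animal of each group per round and 1 animal of 3 mg outside them, and the labels do not say what a round stands for. Deviations from the group means correlated from -0.4 to 0.31 between animals of 1 round (median 0.06, 11 of 26 pairs over 0.1). With the rounds as a replicate block, a choice made after the values had been seen, the counts at 24 h were 8 higher with 1 mg and 3 lower with 6 mg, where Usp18 was added at -1.05 (adjusted p = 0.0346). Signal over background limits what could be read for Ifnb1, Ifng and the second Mx2 probe set.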
